A study of Drosophila melanogaster with 2 samples.

Results

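In a chromatin immunoprecipitation sequencing (ChIP-seq) experiment on the fly protein Jing, 711 strong peaks of replicate 2 (27.4% of its strong peaks) had no counterpart among the strong peaks of replicate 3. These replicate 2-only peaks were selected on measured values. Peaks were ranked by their deposited signal, and from each replicate the strongest were taken, as many as the authors' thresholded list holds. A strong replicate 2 peak was kept when no strong replicate 3 summit, the position of highest signal within a peak, lay within 250 bp of its own summit. The other 1882 strong replicate 2 peaks are called shared here, and the same rule turned round gave 702 replicate 3-only peaks. The samples formed 1 group, with 2 biological replicates from separate biosamples of the same donor line, to which the labels give the numbers 2 and 3. Both were whole Drosophila melanogaster embryos, male and female pooled, aged 0 to 16 h, from a transgenic line that stably expresses Jing with GFP, the green fluorescent protein, at its C terminus (jing-eGFP). Chromatin was sonicated to 200 to 800 bp and precipitated with an antibody against GFP, so every tissue of the embryo and every stage in this window was mixed in each sample, and binding in fewer cells cannot be told apart from weaker binding per cell. All embryos carried the tagged protein, a control alignment was not analysed here, and with 1 group no test between samples was possible. How many reads lie behind each peak is unknown.

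Jing is a zinc finger protein, the fly counterpart of the vertebrate protein AEBP2, which associates with Polycomb repressive complex 2 (PRC2), the complex that methylates histone H3 and keeps developmental genes silent. In fly embryos, jing is needed in the tracheal system and in the midline of the central nervous system. Polycomb complexes reach their targets through short DNA elements that are bound by several DNA-binding proteins, among them Pho, the GAGA factor encoded by Trl, Zeste and Combgap. Some of these proteins also act at the promoters of active genes.

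The windows below show what these peaks look like in sequence. Each is 200 bases around the summit of one of the strongest replicate 2-only peaks, read from the Release 6 assembly (dm6), plus strand, 5′ to 3′. For each consensus sequence that was more frequent in replicate 2-only peaks, one of the strongest peaks that match it is shown, with the match in capitals. In the window of Lamtor3 (chr2L:17481037-17481236, rank 112 in replicate 2) the capitals mark a match to the Zeste consensus (CGAGCG or CGAGTG, and with a T as first letter TGAGCG or TGAGTG, on either strand). The summit lies at -94 bp from the start site, upstream of it, and the last bases of the window belong to the first exon of Lamtor3. In the intergenic window near the homeobox gene E5 (chr3R:13877223-13877422, rank 352) they mark a pair of Zeste matches. In the intronic window of upSET (chr3L:14004966-14005165, rank 284) they mark the GAGA repeat (GAGAG on either strand, here on the minus strand). In the promoter window of grn (chr3R:8181492-8181691, rank 647) they mark the GT repeat that Combgap binds (GTGTGTG). In the intronic window of Alh (chr3R:7108869-7109068, rank 135) they mark the Initiator (TCAGTC or TCAGTT), and in the promoter window of ems (chr3R:13901584-13901783, rank 651) the Grainyhead consensus (AACCNGTT, here on the minus strand).
Lamtor3: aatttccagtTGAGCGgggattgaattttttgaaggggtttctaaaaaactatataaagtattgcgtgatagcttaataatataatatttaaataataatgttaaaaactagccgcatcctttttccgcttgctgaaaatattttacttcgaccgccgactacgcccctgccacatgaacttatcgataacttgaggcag
E5: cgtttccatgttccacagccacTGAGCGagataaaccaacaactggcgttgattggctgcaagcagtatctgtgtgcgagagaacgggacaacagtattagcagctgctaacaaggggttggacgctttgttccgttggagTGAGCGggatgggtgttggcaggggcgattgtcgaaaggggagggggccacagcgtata
upSET: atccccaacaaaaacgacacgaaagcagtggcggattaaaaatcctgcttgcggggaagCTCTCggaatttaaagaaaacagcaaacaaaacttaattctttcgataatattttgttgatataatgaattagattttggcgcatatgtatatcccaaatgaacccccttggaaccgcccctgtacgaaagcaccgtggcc
grn: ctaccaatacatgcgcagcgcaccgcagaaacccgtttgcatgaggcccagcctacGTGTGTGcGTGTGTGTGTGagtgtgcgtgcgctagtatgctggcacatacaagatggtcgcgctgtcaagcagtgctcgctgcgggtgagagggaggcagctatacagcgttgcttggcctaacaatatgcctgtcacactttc
Alh: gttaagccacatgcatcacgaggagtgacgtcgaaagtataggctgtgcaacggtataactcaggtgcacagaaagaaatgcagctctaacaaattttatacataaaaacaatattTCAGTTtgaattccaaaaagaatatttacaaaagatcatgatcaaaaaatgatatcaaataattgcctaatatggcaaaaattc
ems: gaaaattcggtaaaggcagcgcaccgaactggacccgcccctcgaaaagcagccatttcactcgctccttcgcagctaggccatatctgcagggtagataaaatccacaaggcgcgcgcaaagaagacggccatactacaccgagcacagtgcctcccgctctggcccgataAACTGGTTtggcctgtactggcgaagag

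The replicate 2-only peaks were mostly the weaker ones of their list. Their signals, on a scale the sources used here do not give, ran from 50.8 to 304 with a median of 61.3, and their median rank was 1920. Shared peaks had a median signal of 89.7 and a median rank of 1030. With the strong replicate 2 list cut into 4 equal bins by rank, 31 peaks (4.78%) of the strongest bin were replicate 2-only, then 108 (16.7%) and 228 (35.2%) of the middle bins and 344 (53.0%) of the weakest. These values chose the peaks and are given without a test. At the edge of the selection, the last peak inside and the first outside both had a signal of 50.8 in replicate 2 and of 59.4 in replicate 3. The closest replicate 2-only summit lay 253 bp from a strong replicate 3 summit, and the farthest shared summit lay 238 bp from one. At more than 250 and up to 300 bp there were 6 replicate 2-only peaks, and at more than 200 and up to 250 bp there were 7 shared peaks. Of the 711 peaks, 650 lay more than 1 kb from any strong replicate 3 summit, with a median distance of 10749 bp.

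Most of the replicate 2-only peaks were listed in replicate 3 at a lower rank. Among the 30000 relaxed peaks of replicate 3, 488 of the 711 had a summit within 250 bp, at a median rank of 3959 (quartiles 3144 and 7883). Of these, 299 ranked within the first 5000 and 90 ranked beyond 10000. The other 223 (31.4%) had no replicate 3 summit within 250 bp at all, against 71 (10.1%) of the replicate 3-only peaks that had none in replicate 2. In the list called on the pooled reads, 100 (14.1%) of the replicate 2-only peaks had no summit within 250 bp, against 13 (0.691%) of the shared and 49 (6.98%) of the replicate 3-only peaks. Of those 100, 99 also lacked a relaxed replicate 3 summit. The authors' thresholded list held 295 (41.5%) of the replicate 2-only peaks, 1863 (99.0%) of the shared peaks and 398 (56.7%) of the replicate 3-only peaks. By bin of rank, from the strongest to the weakest, 19 of 31 replicate 2-only peaks (61.3%), 30 of 108 (27.8%), 68 of 228 (29.8%) and 106 of 344 (30.8%) had no relaxed replicate 3 summit. The share was thus high in the strongest bin and about level in the others, while the number was lowest in the strongest bin, and since the rule used these ranks the shares are a description with no test.

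**Figure D1:**
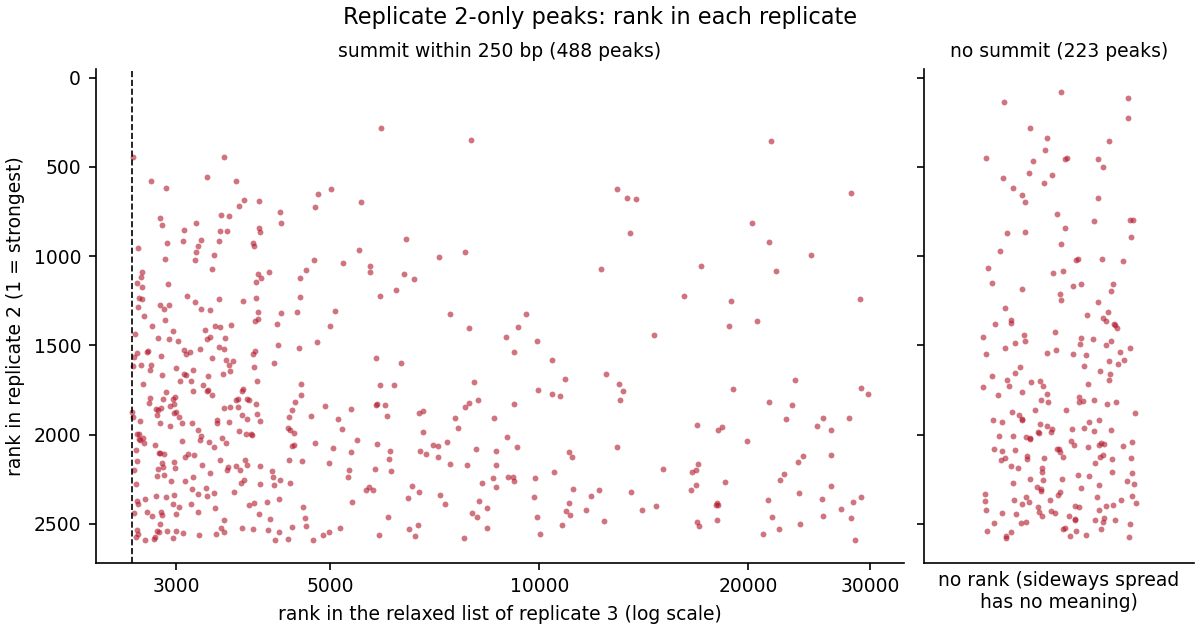
Each point is a replicate 2-only peak, placed by its rank in replicate 2 (y axis, 1 is the strongest) and the rank of the nearest summit within 250 bp in the relaxed list of replicate 3 (x axis, log scale, dashed line at the last strong rank). The right panel holds the 223 peaks with no such summit. The 488 others crowd just past the line, with a median replicate 3 rank of 3959, and thin out towards rank 30000.

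The strongest replicate 2-only peak lay at -220 bp from a start site of Sox14 (negative is upstream), which encodes an HMG-box transcription factor. It had a signal of 304 and rank 79 in replicate 2, and no summit within 250 bp in replicate 3 or in the pooled list. The peak of Lamtor3, a subunit of the Ragulator complex on lysosomes, had a signal of 255 and rank 112 in replicate 2 and no replicate 3 summit, but rank 115 in the pooled list. The intronic peak of Alh, the fly counterpart of the AF10 family, had a signal of 238 and rank 135 in replicate 2 and no summit in either of the other lists. Of the 15 strongest peaks, 10 had no replicate 3 summit, namely those nearest to Sox14, Lamtor3, Alh, CycY, upSET, mars, Cyt-c-p, asRNA:CR45999, RpLP0 and yps. Of these 10, Sox14, Alh, asRNA:CR45999 and yps had no pooled summit.

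The other 5 of the 15 strongest had a weaker replicate 3 summit. The peak at -45 bp from the start of gcm, the switch gene for glial and haemocyte fates, had a signal of 174 and rank 281 in replicate 2, against a signal of 37.0 and rank 5912 in replicate 3. The peak near E5 had rank 352 in replicate 2 and rank 7971 in replicate 3. The peak 121 bp downstream of the start of Psc, a subunit of Polycomb repressive complex 1 (PRC1), had rank 355 in replicate 2 and rank 21565 in replicate 3, and a strong replicate 3 summit lay 256 bp from it, just outside the distance that counts as shared. The peak near CG10348 had rank 443 in replicate 2 and rank 3512 in replicate 3. The peak at cv-2, which encodes a secreted BMP-binding protein, had rank 447 in replicate 2 and rank 2596 in replicate 3, so it missed the strong set of replicate 3 by 3 places. Peaks of this kind thus ran from a near miss to no counterpart at all. The peak nearest to CycY had its summit in a coding exon of Pde1c. In all, 9 of the 711 peaks were narrower than the usual 356 bp, the narrowest, in upSET, at 99 bp.

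Replicate 2-only summits lay at promoters, within 500 bp of a start site, more often than either of the other sets. Of the 711, 352 (49.5%, 95% Wilson interval 45.8 to 53.2) were at a promoter, against 818 of 1882 shared summits (43.5%, 41.2 to 45.7; odds ratio 1.28, Fisher's adjusted p = 0.0214) and 247 of 702 replicate 3-only summits (35.2%, 31.7 to 38.8; odds ratio 1.81, adjusted p = 1.84e-07). Introns held 214 replicate 2-only summits (30.1%), against 722 shared (38.4%, odds ratio 0.692, Fisher's adjusted p = 6.74e-04) and 310 replicate 3-only summits (44.2%, odds ratio 0.544, adjusted p = 1.84e-07). Intergenic shares were 17.0% of replicate 2-only, 16.2% of shared and 17.9% of replicate 3-only summits and did not pass the test. All tests of shares here are two-sided Fisher's exact tests, adjusted by Benjamini-Hochberg within their family. They treat peaks as independent, so p-values describe positions within these 2 libraries, not the embryos. When the rule was applied anew to the stronger part of each list, cut at the middle rank, both promoter calls were lost. The odds ratio was 1.06 against shared peaks (Fisher's adjusted p = 0.862) and 1.21 against replicate 3-only peaks (adjusted p = 0.428). A peak whose counterpart in the other replicate ranked past that cut then counted as unshared, so these values describe a partly different set of peaks. Restricted to peaks with no relaxed summit in the other replicate, the promoter odds ratio was 2.47 against shared peaks (Fisher's adjusted p = 4.39e-09) and 0.744 against replicate 3-only peaks (adjusted p = 0.673). This restriction left 223 replicate 2-only and 71 replicate 3-only peaks.

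Within promoters the summits also sat closer to the start site. The median offset of replicate 2-only promoter summits was -38 bp (quartiles -148 and 51, negative upstream), against -145 bp (-242 and -58) for shared and -126 bp (-244 and -56) for replicate 3-only promoter summits. Downstream of the start site lay 136 of the 352 (38.6%, 33.7 to 43.8), against 149 of 818 shared (18.2%, 15.7 to 21.0) and 42 of 247 replicate 3-only promoter summits (17.0%, 12.8 to 22.2). The share differed by Fisher's exact test from that of shared (odds ratio 2.83, p = 5.18e-13) and of replicate 3-only promoter summits (odds ratio 3.07, p = 8.05e-09), in a split by side that was chosen after the offsets were seen. The 223 peaks with no relaxed replicate 3 summit were at promoters in 146 cases (65.5%, 59.0 to 71.4), against 206 of the 488 with one (42.2%, 37.9 to 46.6), and intergenic in 6.73% of cases, against 21.7% of those with one. That division was made after values were seen and carries no test.

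**Figure D2:**
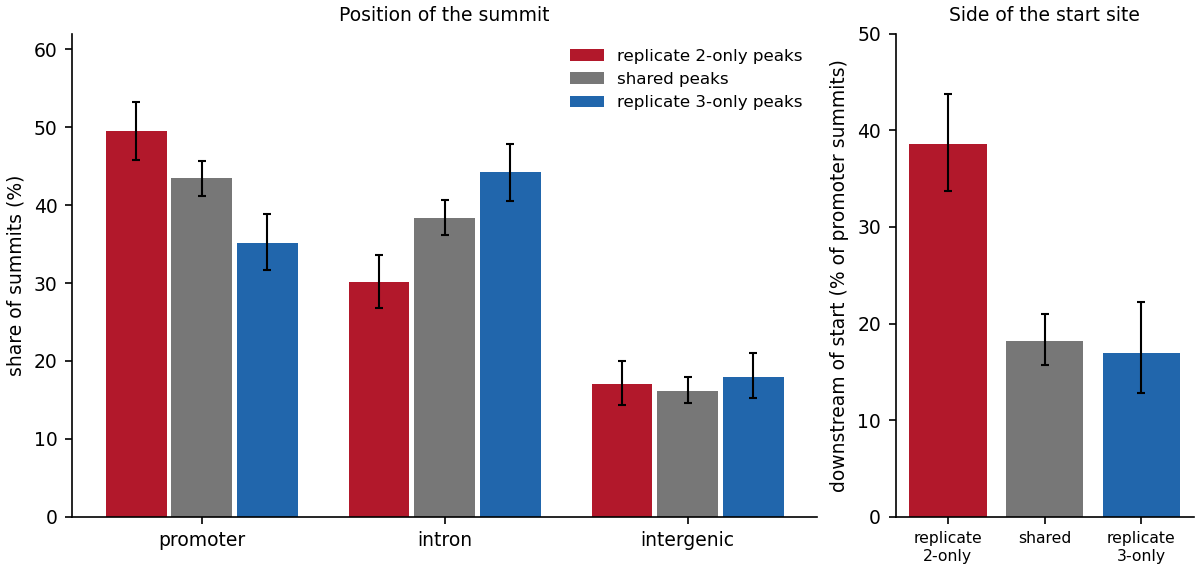
Left, share of summits (%, y axis) at promoters, in introns and between genes for replicate 2-only (red), shared (grey) and replicate 3-only peaks (blue). Right, share of promoter summits (%) downstream of the start site. Bars are shares with 95% Wilson intervals. Red is highest at promoters (49.5%) and lowest in introns (30.1%), and in the right panel stands at 38.6% against 18.2% (grey) and 17.0% (blue).

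Replicate 2-only peaks were sparse on the X chromosome. Of the 703 peaks on X, 2L, 2R, 3L and 3R, 93 (13.2%, 10.9 to 15.9) were on X, against 349 of 1875 shared peaks (18.6%, 16.9 to 20.4; odds ratio 0.667, Fisher's adjusted p = 0.00245) and 162 of 699 replicate 3-only peaks (23.2%, 20.2 to 26.4; odds ratio 0.505, adjusted p = 3.17e-06). X held 3.95 replicate 2-only peaks per Mb (exact Poisson interval 3.19 to 4.84), and the large autosome arms held 4.99 to 6.59 per Mb. In the weaker part of the lists, past the middle rank, the difference from shared peaks was not called (odds ratio 0.880, Fisher's adjusted p = 0.707). Chromosome 4 had 8 replicate 2-only peaks, 7 shared and 3 replicate 3-only peaks. Its share of the autosomal peaks was 1.29%, against 0.457% of shared (Fisher's adjusted p = 0.0448) and 0.556% of replicate 3-only peaks (adjusted p = 0.236), which rests on single-digit counts. Within 5 kb of another peak of the same kind lay 107 replicate 2-only peaks (15%), against 672 shared (35.7%, in a larger set, so that set size and clustering cannot be told apart; Fisher's p = 1.41e-26) and 83 replicate 3-only peaks (11.8%; p = 0.0861). In the weaker part of the lists the first of these differences was not called (odds ratio 0.782, Fisher's p = 0.166), and the second changed direction (odds ratio 0.914, p = 0.642).

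The DNA at replicate 2-only summits was richer in G and C than at the other peaks. Windows of 200 bp at the summit had a median GC content of 39.0% (quartiles 32.5 and 47.8), against 34.5% (31.0 and 39.0) for shared and 34.5% (31.0 and 39.0) for replicate 3-only summits. In windows of the same length centred 500 bp away the medians were 42.0% for replicate 2-only, 42.5% for shared and 43.8% for replicate 3-only peaks. The summit thus had a lower GC content than its flank in 400 of the 711 replicate 2-only peaks (56.3%, 52.6 to 59.9; exact sign test, p = 1.29e-04), but in 74.3% of shared peaks (odds ratio 0.445, Fisher's p = 3.31e-18) and 78.8% of replicate 3-only peaks (odds ratio 0.347, p = 1.03e-19). At promoters the medians stood farther apart, at 43.2% for replicate 2-only summits and 34.0% for both shared and replicate 3-only summits. There the summit was lower than its flank in 48.0% of replicate 2-only peaks, against 77.0% of shared (Fisher's p = 8.40e-22) and 80.6% of replicate 3-only peaks (p = 2.49e-16). Outside promoters the medians were 36.0% for replicate 2-only and 35% for both shared and replicate 3-only summits. The summit was lower than its flank there in 64.1% of replicate 2-only peaks, against 74.2% of shared (Fisher's p = 3.20e-04) and 79.1% of replicate 3-only peaks (p = 2.02e-06). The split by promoter was added after seeing the data.

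**Figure D3:**
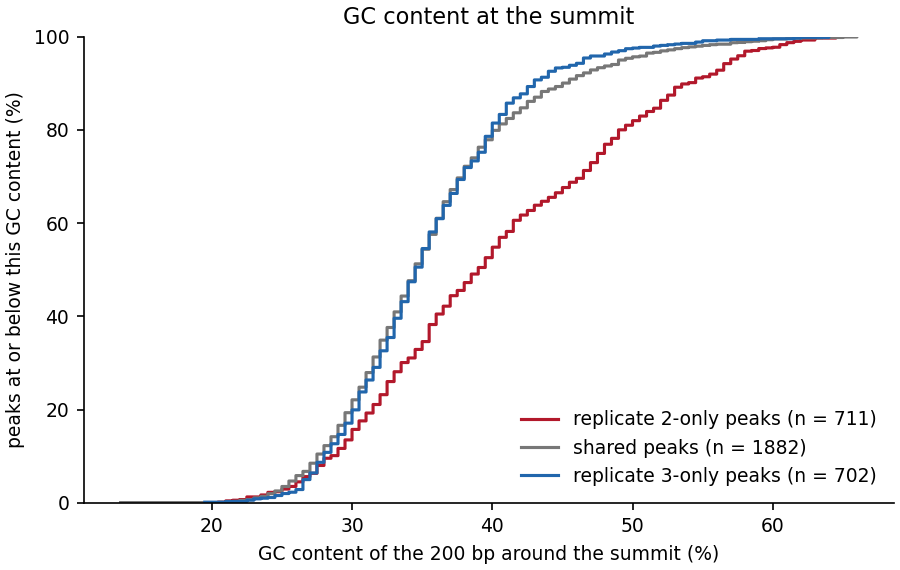
Cumulative share of peaks (%, y axis) by GC content of the summit window of 200 bp (%, x axis) for replicate 2-only (red), shared (grey) and replicate 3-only peaks (blue). The grey and blue curves, both with a median of 34.5%, nearly coincide, and the red curve runs to their right with a median of 39.0%.

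Of 25 consensus sequences searched on both strands, matches to the Zeste, GAGA, GT repeat, Initiator and Grainyhead sequences were more frequent at replicate 2-only than at shared summits. Those of MEF2, homeodomain proteins and GATA factors were less frequent. These 8 are 32.0% of the 25 tested. Against replicate 3-only summits 7 (28.0%) were called, with Zeste, GAGA, GT repeat and Initiator more and MEF2, homeodomain and Su(Hw) less frequent. Against their own flanks only 1 (4%) was called, the Zeste sequence, and that call was lost when only summits outside promoters were taken. A match is a string of letters, not a bound site. The Zeste and GAGA strings share the letters GAG and can overlap, and 112 of the 711 windows (15.8%) held both.

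The Zeste sequence, which the trithorax-related protein Zeste binds, was present in 37.6% of replicate 2-only windows, against 23.1% of shared (odds ratio 2.01, Fisher's adjusted p = 9.11e-12) and 21.8% of replicate 3-only windows (odds ratio 2.16, adjusted p = 2.22e-09). Its share was 28.3% in the flanks of the replicate 2-only peaks (exact McNemar test, adjusted p = 0.00457) and 25.1% in all 200 bp tiles of the genome. The GAGA repeat was present in 31.1% of replicate 2-only windows, against 24.2% of shared (Fisher's adjusted p = 0.00369), 19.5% of replicate 3-only windows (adjusted p = 8.37e-06) and 21.4% of genome tiles. In the flanks of the replicate 2-only peaks it was at 26.2%, which did not pass the exact McNemar test (adjusted p = 0.151). For both strings the replicate 2-only share stood above that of the tiles, and for Zeste the shared and replicate 3-only shares stood below it, with no test against the tiles.

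The GT repeat of Combgap was present in 10.1% of replicate 2-only windows, against 5.84% of shared (Fisher's adjusted p = 0.00338), 5.13% of replicate 3-only windows (adjusted p = 0.00355) and 6.20% of genome tiles. The Initiator, a core promoter element at start sites, was present in 23.6%, against 18.7% of shared (Fisher's adjusted p = 0.0254), 17.1% of replicate 3-only windows (adjusted p = 0.0119) and 17.7% of tiles. The Grainyhead sequence, which an epidermal transcription factor binds, was present in 4.36%, against 2.39% of shared (Fisher's adjusted p = 0.0445), 2.28% of replicate 3-only windows (adjusted p = 0.110) and 1.91% of tiles. The sequence of Pho, the main DNA-binding protein of Polycomb elements (GCCAT), was not called: it was present in 30.4%, against 26.4% of shared (Fisher's adjusted p = 0.0899), 25.5% of replicate 3-only windows (adjusted p = 0.110) and 35.3% of tiles.

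Matches to 4 sequences, those of MEF2, homeodomain proteins, GATA factors and Su(Hw), were less frequent in at least 1 comparison. The AT-rich TATA box (13.6% of replicate 2-only against 16.3% of shared windows, Fisher's adjusted p = 0.170) and poly-A tract (12.2% against 11.7% of shared windows, adjusted p = 0.823) were not called over all windows. Among promoter summits alone the TATA box was in 11.1% of replicate 2-only windows, against 18.0% of shared (Fisher's adjusted p = 0.0134) and 17.4% of replicate 3-only windows (adjusted p = 0.0829). The MEF2 sequence, bound by the muscle factor Mef2, was present in 7.45%, against 11.4% of shared (Fisher's adjusted p = 0.0185), 12.4% of replicate 3-only windows (adjusted p = 0.0119) and 6.42% of tiles. The homeodomain sequence TAATTA was present in 13.1%, against 17.5% of shared (Fisher's adjusted p = 0.0254), 18.7% of replicate 3-only windows (adjusted p = 0.0186) and 12.4% of tiles. The GATA sequence (AGATAA or AGATAG, and with a T as first letter TGATAA or TGATAG) was present in 33.1%, against 38.2% of shared (Fisher's adjusted p = 0.0487), 38.3% of replicate 3-only windows (adjusted p = 0.110) and 30% of tiles. The sequence of the insulator protein Su(Hw) (TGCATANTT) was present in 1.83%, against 3.13% of shared (Fisher's adjusted p = 0.156), 4.42% of replicate 3-only windows (adjusted p = 0.0198) and 2.09% of tiles.

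The Grainyhead and GATA calls against shared peaks each held in 4 of 12 alternatives, over which the odds ratio ran from 1.21 to 2.26 for Grainyhead and from 0.705 to 0.916 for GATA. The Initiator call held in 5 of 12 against shared (odds ratio 1.01 to 1.5) and in 6 of 12 against replicate 3-only peaks (0.808 to 2.20). The Su(Hw) call also held in 6 of 12 (0.155 to 0.790), and those of Zeste, GAGA, GT repeat, MEF2 and homeodomain in 7 to 10 of 12. One of the 12, the flank distance, cannot change these comparisons. Against flanks, the Zeste call held in 7 of 12. The ratio of peaks matched at the summit alone to peaks matched in the flank alone was 1.55, and ran from 1.04 to 1.88. The call was lost outside promoters (1.04), with no relaxed summit (1.16) and between 35 and 45% GC (1.27). It was also lost in the stronger (1.49) and weaker part of the lists (1.34).

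The match shares were compared again by position and by base composition. Among promoter summits alone, the Zeste sequence was in 45.7% of replicate 2-only windows, against 23.2% of shared and 19.0% of replicate 3-only windows, and the GAGA repeat in 33.0%, against 24.4% of shared and 14.6% of replicate 3-only windows. In these promoter windows 9 of the 25 sequences were called against shared and 7 against replicate 3-only peaks. The Zeste odds ratio was 2.79 against shared (Fisher's adjusted p = 1.35e-12) and 3.59 against replicate 3-only windows (adjusted p = 1.73e-10). Outside promoters none of the 25 sequences was called by Fisher's exact test against shared peaks (4 at an unadjusted p under 0.05) or replicate 3-only peaks (2), with Zeste at 29.5%, against 22.9% of shared and 23.3% of replicate 3-only windows. In windows with a GC content between 35 and 45% none was called either (4 against shared and 1 against replicate 3-only peaks at an unadjusted p under 0.05), with Zeste at 30.8%, against 26.2% of shared and 23.9% of replicate 3-only windows. There the GAGA repeat was at 25.9%, against 26.2% of shared and 23.3% of replicate 3-only windows. These restrictions were chosen after seeing the data and leave fewer windows, so that calls can be lost where the size of a difference is kept. The promoter restriction left fewer windows of each kind than the one outside promoters (for replicate 2-only peaks 352 against 359). It kept most calls but lost Grainyhead against shared (Fisher's adjusted p = 0.163) and the GT repeat against replicate 3-only windows (adjusted p = 0.0544). Newly called there were the TATA box and Su(Hw) against shared and GATA against replicate 3-only windows, all less frequent. Outside promoters the odds ratio against shared peaks was 1.41 for Zeste (2.01 over all windows), 1.31 for GAGA (1.41), 1.53 for the GT repeat (1.82) and 1.81 for Grainyhead (1.86). At promoters it was 2.79, 1.52, 2.24 and 1.90, in the same order. In the GC band it was 1.25 for Zeste, 0.987 for GAGA, 1.45 for the GT repeat and 0.567 for MEF2 (0.625 over all windows). Matches differed among promoter summits alone, where GC content differed too, so there GC content and matches cannot be told apart. Over all windows position varied as well, and the cause was not tested.

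**Figure D4:**
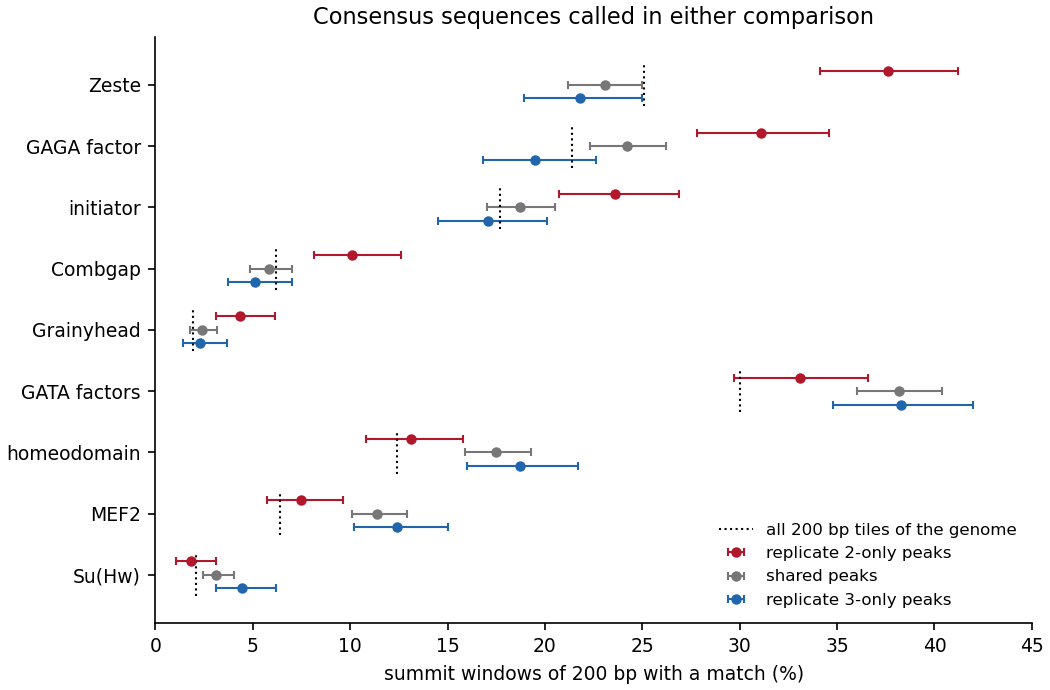
Share of 200 bp summit windows (%, x axis) with a match to each of the 9 consensus sequences called in either comparison, named by the protein or element, for replicate 2-only (red), shared (grey) and replicate 3-only peaks (blue), with 95% Wilson intervals. Dotted lines give the share of all 200 bp tiles of the genome. Red stands to the right of both others in the upper 5 rows, farthest for Zeste (37.6%), and to their left in the lower 4.

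All 2080 6-mers were compared in the same way. Against shared windows 444 (21.3%) were called, 280 more and 164 less frequent. Against replicate 3-only windows 296 (14.2%) were called, 177 more and 119 less frequent. None of the 6-mers called more frequent consisted of A and T alone, while 31 of those less frequent than in shared and 26 of those less frequent than in replicate 3-only windows did. The lowest p-value in both comparisons belonged to CGAGCG, one of the Zeste strings, present in 13.5% of replicate 2-only windows, against 4.41% of shared (Fisher's adjusted p = 3.13e-11) and 2.14% of replicate 3-only windows (adjusted p = 2.45e-13). The next against shared windows were CCGCTC (12.5% against 4.62%), CGAACG (11% against 3.93%), AGCGAG (15.9% against 7.28%) and AGCGGC (12% against 4.62%). Against replicate 3-only windows they were GAGCGA (16.0% against 4.84%), AGCGAG (15.9% against 5.13%), GCGAGC (11.4% against 2.56%) and CCGCTC (12.5% against 3.42%). Several of these overlap each other in letters and are not independent.

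The lowest p-value among the less frequent 6-mers belonged to TTAAAA, present in 33.6% of replicate 2-only windows, against 50.1% of shared (Fisher's adjusted p = 4.85e-11) and 50.1% of replicate 3-only windows (adjusted p = 9.98e-08). The next against shared windows were AAAATA (42.8% against 56.9%), TAAAAA (36.4% against 48.9%), ATTAAA (32.1% against 44.2%) and AAAAAT (42.8% against 55.1%), all of A and T alone. Against replicate 3-only windows they were ATTACA (11.3% against 22.2%), CAGTAA (5.06% against 12.3%), ACTTTA (14.6% against 24.6%) and AAATAT (40.2% against 52.6%).

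A gene was counted when a summit lay inside it or at most 1 kb away. Of all 18277 genes, 820 (4.49%) had a replicate 2-only summit, 1901 (10.4%) a shared one and 794 (4.34%) a replicate 3-only one. Long genes catch more summits, so lists of long genes exceed these shares readily, and no test was made on the lists. Of the 820 genes, 602 had no shared summit.

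The cytosolic ribosomal protein genes encode the proteins of the ribosome and are short, with a median span of 1344 bp. Of 86, 25 (29.1%) had a replicate 2-only summit, 20 (23.3%) a shared one and none a replicate 3-only one. Of the 25 genes, 24 had no shared summit, against 602 of 820 over all genes, and whether gene length plays a part was not tested. With the rule applied anew to the stronger part of the lists, 13 of the 86 ribosomal protein genes had a replicate 2-only summit. So did 20 of 58 listed Polycomb target genes and 390 of all genes. That set also holds peaks whose replicate 3 counterpart ranked past the cut. Ribosomal protein genes are highly expressed, and background signal at promoters of such genes was not measured, since the control alignment was not analysed here. Their 26 summits included 25 at promoters, with a median offset of -27 bp. The promoter peak of RpLP0, a protein of the ribosomal stalk, had a signal of 141 and rank 448 in replicate 2, no replicate 3 summit and pooled rank 748. That of RpS25 had a signal of 139 and rank 455 in replicate 2, no replicate 3 summit and pooled rank 581. RpL41 had a signal of 122 and rank 577 in replicate 2, against a signal of 56.7 and rank 2761 in replicate 3. The peak at RpL34a had a signal of 113 and rank 688 in replicate 2, against a signal of 46.4 and rank 3761 in replicate 3, and lay nearest to the start of its neighbour Trmt61. In all, 15 of the 26 summits had no relaxed replicate 3 summit and 10 had none in the pooled list.

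The translation factors, which load, move and release the ribosome, are another group of the translation machinery. Of 22 genes, 4 (18.2%) had a replicate 2-only summit, 3 (13.6%) a shared one and 1 (4.55%) a replicate 3-only one. All 4 summits were at promoters and lacked a summit in both the relaxed replicate 3 list and the pooled list. These were eEF1alpha1 (signal 71.9, rank 1496), eEF5 (71.2, rank 1517), eIF2beta (56.2, rank 2208) and eIF3c (53.3, rank 2408). Of 73 mitochondrial ribosomal protein genes 2 (2.74%) had a replicate 2-only summit, 7 (9.59%) a shared one and 3 (4.11%) a replicate 3-only one, so this group stood near or below the shares of all genes. The peaks counted for these 2 genes, mRpS2 and mRpL27, lay nearest to the start sites of their neighbours Mon1 and RpL27A. Of 295 transfer RNA genes, 8 (2.71%) had a replicate 2-only summit, and these shared 5 summits, since the genes lie in clusters.

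Developmental regulators known as Polycomb targets, outside the Hox clusters, formed the list with the most replicate 2-only genes. Of 58 such genes, 28 (48.3%) had a replicate 2-only summit, 20 (34.5%) a shared one and 4 (6.90%) a replicate 3-only one. These genes are long (median span 11626 bp). Of the 34 summits, 23 were at promoters, and 19 of the 28 genes had no shared summit, against 602 of 820 over all genes. A relaxed replicate 3 summit was present for 29 of the 34, against 11 of the 26 at ribosomal protein genes, and a pooled one for all 34, a difference that was not tested. The promoter peak of the homeobox gene B-H1 had a signal of 122 and rank 581 in replicate 2, against a signal of 47.1 and rank 3653 in replicate 3. That of ems, a head gap homeobox gene, had a signal of 115 and rank 651 in replicate 2, against a signal of 40.7 and rank 4798 in replicate 3. That of ey, the fly Pax6 gene, had a signal of 113 and rank 680 in replicate 2, against a signal of 27.1 and rank 13779 in replicate 3. That of dac, which acts with it in the eye, had a signal of 102 and rank 827 in replicate 2, against a signal of 55.3 and rank 2865 in replicate 3. All 4 were thus listed in both replicates, lower in replicate 3. Others in the group included salm, Optix, en, hh, eya and so.

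Of 23 segmentation genes, 8 (34.8%) had a replicate 2-only summit, 6 (26.1%) a shared one and 1 (4.35%) a replicate 3-only one. The promoter peak of opa, a zinc finger pair-rule gene, had rank 624 in replicate 2 and 12938 in replicate 3. That of slp1, a forkhead gene, had rank 1079 in replicate 2 and 4620 in replicate 3. That of kni, a gap gene of the nuclear receptor class, had rank 1242 in replicate 2 and 29004 in replicate 3, close to the end of the relaxed list. That of nub, a POU gene, had rank 1549 in replicate 2 and 3094 in replicate 3. The haemocyte and fat body list had 5 of 16 genes (31.2%) with a replicate 2-only summit, 3 (18.8%) with a shared one and none with a replicate 3-only one. Its 8 summits all had a relaxed replicate 3 summit, and its genes were gcm, the Friend-of-GATA gene ush, the GATA gene srp, zfh1 and Pvr.

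In the signalling lists fewer genes had a replicate 2-only than a shared summit, as was the case over all genes. Of 16 Dpp and BMP pathway genes, 5 (31.2%) had a replicate 2-only summit, 9 (56.2%) a shared one and 6 (37.5%) a replicate 3-only one. The 5 were cv-2, the glypican gene dally, the receptor gene tkv, the ligand gene dpp and its antagonist sog. Of 20 ecdysone and JAK/STAT genes, 7 (35%) had a replicate 2-only, 10 (50%) a shared and 7 (35%) a replicate 3-only summit, among them the receptor gene EcR (rank 1489, none in replicate 3), Eip75B, Hr4 and the cytokine genes upd1 and upd2. Of 20 Wingless and Wnt genes, 3 (15%) had a replicate 2-only, 5 (25%) a shared and 6 (30%) a replicate 3-only summit. The 3 were the ligand gene Wnt4, Notum, which encodes an enzyme that inactivates Wnt ligands, and the receptor gene fz. Of 16 Notch pathway genes, 3 (18.8%) had a replicate 2-only, 6 (37.5%) a shared and 1 (6.25%) a replicate 3-only summit, the 3 being the ligand gene Ser and the repressor genes E(spl)m3-HLH and E(spl)mdelta-HLH.

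The same held for the lists of tracheal, nervous system, muscle and gut genes. Of 18 tracheal genes, 8 (44.4%) had a replicate 2-only, 11 (61.1%) a shared and 5 (27.8%) a replicate 3-only summit. The strongest were at pnt (ETS factor, rank 1123 in replicate 2 and 3970 in replicate 3), heca (rank 1129 in replicate 2 and 6598 in replicate 3), vvl (POU factor, rank 1194, none in replicate 3) and kni. Of 24 midline and glial genes, 8 (33.3%) had a replicate 2-only, 13 (54.2%) a shared and 8 (33.3%) a replicate 3-only summit, with gcm, jing and pnt strongest. Of 22 neural progenitor genes, 5 (22.7%) had a replicate 2-only, 6 (27.3%) a shared and 5 (22.7%) a replicate 3-only summit. In this list svp, a nuclear receptor gene, had rank 503 and no replicate 3 summit, and pros, a homeobox gene, had rank 619 in replicate 2 and 2899 in replicate 3. Of 20 muscle genes, 3 (15%) had a replicate 2-only summit, namely Mef2, the integrin gene if and the fusion gene sns, against 9 (45%) with a shared and 1 (5.00%) with a replicate 3-only one. Of 14 gut and endoderm genes, 3 (21.4%) had a replicate 2-only, 6 (42.9%) a shared and 1 (7.14%) a replicate 3-only summit. Of 17 differentiated neuron genes none had a replicate 2-only, 2 (11.8%) a shared and 1 (5.88%) a replicate 3-only summit, and of 12 germline genes none had any.

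The lists of chromatin proteins and of the Hox genes held few genes, so their shares rest on small counts. Of 16 trithorax group genes, 3 (18.8%) had one, 8 (50%) had a shared and 4 (25%) a replicate 3-only summit. The 3 were Trl, psq and kis, and the intronic peak of Trl, the gene of the GAGA factor itself, had a signal of 101 and rank 844 in replicate 2 and no summit in replicate 3 or the pooled list. Of 14 genes of PRC1 and Polycomb recruiters, Psc alone had one, against 4 (28.6%) with a shared and 4 (28.6%) with a replicate 3-only summit. Of 8 Hox genes, 2 (25%), Antp and lab, had one, and 2 had a shared and 2 a replicate 3-only summit. Of 9 genes in the list of PRC2 genes and jing, only jing (11.1%) had one, against 3 (33.3%) with a shared and 1 (11.1%) with a replicate 3-only summit.

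The jing gene (dm6 chr2R:6502006-6621792, plus strand) had the most replicate 2-only summits of any gene, 6, with 4 shared and 2 replicate 3-only summits in a span of 119787 bp. The 6 ranked between 1071 and 2352 in replicate 2, with signals of 87.8, 69.5, 66.2, 64.0, 55.3 and 54.0, and 5 lay in introns and 1 at a promoter. The strongest peak of the gene, of rank 14 and signal 516, was a shared one at its start. The other 3 shared summits had signals of 86.9, 72.2 and 59.4, so apart from the one at the start the signals of both kinds overlapped. Of the 6, 3 had a relaxed replicate 3 summit, at ranks 3376, 10425 and 3085, and all 6 had a pooled one. After jing came lncRNA:CR44357 with 5 and hth, lncRNA:CR32773 and ush with 4 each. A further 6 genes had 3 each, of which Eip75B, apt and bi are named by the rule, and 5 of these 8 genes span more than 100 kb.

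**Figure D5:**
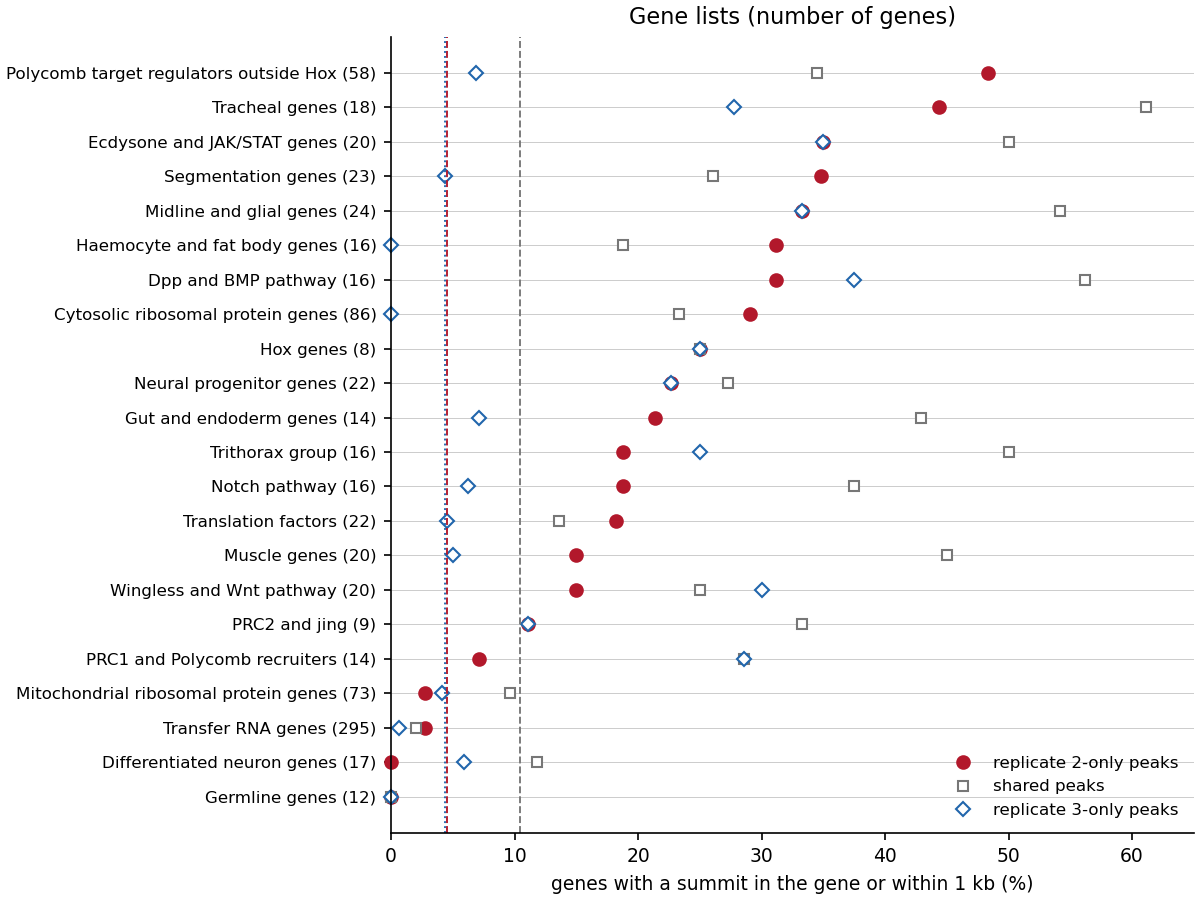
Share of genes with a summit inside or at most 1 kb away (%, x axis) for each gene list (number of genes in brackets), for replicate 2-only (filled red circles), shared (open grey squares) and replicate 3-only peaks (open blue diamonds). Vertical lines give the same shares over all 18277 genes, 4.49%, 10.4% and 4.34%. Red stands to the right of grey in the Polycomb target regulators (48.3%), the segmentation genes, the haemocyte and fat body genes, the cytosolic ribosomal protein genes (29.1%), the translation factors and the transfer RNA genes.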

How the data were processed

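ChIP-seq peak lists of 2 biological replicates of 1 group were used. Per the readme files deposited with the samples, the authors called peaks of each replicate against a control alignment, and derived the thresholded list from the lists of both replicates and of the pooled reads by the irreproducible discovery rate step. Coordinates are in dm6, per the labels, and are given 1-based. For the aligner and peak caller, no name is given in the sources used here. Each deposited list gives a signal per peak, on a scale that is not stated, and the −log10 of its q-value, which was at least 2.67 for replicate 2-only and 1.32 for replicate 3-only peaks. Both are the authors' values and served only to rank and describe peaks within a list. Each relaxed list holds 30000 peaks. The depth is unknown, and intervals cover counting error only.

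Genes came from Ensembl release 115, with 23694 start sites, and sequence from the Release 6 assembly. Strong peaks were the 2593 strongest of each replicate. A summit that was not at a promoter took the first class that applied of UTR (5′ before 3′), coding exon, other exon, intron and intergenic. Consensus sequences were searched in the 200 bp around the summit and in a flank centred 500 bp away. Tests were two-sided: Fisher's exact test between sets, an exact McNemar test against flanks and an exact sign test for GC content. Each family was adjusted by Benjamini-Hochberg, apart from clustering and GC content, with 1 test per comparison. Calls have an adjusted p under 0.05. The selection, the 22 gene lists (8 symbols matched through older names, 6 unmatched) and the 25 consensus sequences were chosen with earlier results of these data known. Named were the 15 strongest peaks, up to 4 genes per list with the strongest peaks, the 8 genes with the most peaks and the peaks in jing. Also named were the 5 6-mers of lowest p in each direction. Windows were taken from the strongest peaks with each consensus that lay off chromosome arm 2R. Windows with more than 30 bases of UTR were left out of printing. Genes named beyond these in the Polycomb target, haemocyte and signalling lists were chosen after their values were seen. Other distances, ranks (1296 strongest, or ranks 1297 to 2593) and windows were tried. The steps were tested on simulated data. Computation was in Python 3.11.15 (scipy 1.17.1, numpy 2.4.6, pandas 2.3.3, figures with matplotlib 3.10.9).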

Additional observations from a re-analysis of the deposited data

How the results depend on the processing

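No paired analysis was possible because there was 1 group and no result came from a test across replicates, and neither replicate could be left out since the selection needs both. When the rule was applied anew to only the stronger part of each strong list, cut at its middle rank, 333 were replicate 2-only, near 390 genes. Of the 711 peaks, only 31 and 108 lay in the 2 stronger bins of rank, so many of the 333 had a replicate 3 counterpart past the cut. The weaker part instead kept the peaks as first selected, so the parts do not add up to the 711. With 5000 strong peaks there were 1752 replicate 2-only peaks, and with no relaxed replicate 3 summit allowed 223. Odds ratios are replicate 2-only over the other set. The promoter odds ratio against shared peaks missed the threshold at 1.06 (stronger part), 1.20 (1 summit per 2 kb) and 1.20 (promoter within 1000 bp), and that against replicate 3-only peaks at 1.21 (stronger part) and, reversed, 0.744 (no relaxed summit). Reversed too were intergenic shares against replicate 3-only peaks (1.64 in the stronger part, 1.63 with no relaxed summit) and shared peaks (0.373 with no relaxed summit, 0.906 with promoters within 250 bp), and introns (1.37) and the Initiator (0.808) against replicate 3-only peaks with no relaxed summit. The X odds ratio missed the threshold at 0.880 against shared peaks (weaker part) and 0.498 against replicate 3-only peaks (no relaxed summit).

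Clustering against shared peaks was 0.782 in the weaker part. Against replicate 3-only peaks it was called at 1.45 (shared within 100 bp), 1.62 (within 2 kb), 1.27 (within 20 kb) and 1.45 (no stronger summit within 500 bp), and reversed at 0.782 (stronger part), 0.914 (weaker part) and 0.953 (no relaxed summit). GC content lower at the summit than in the flank reversed at promoters (ratio of lower to higher 0.949), and the GAGA odds ratio against shared peaks between 35 and 45% GC (0.987).

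Consensus sequences called against shared peaks (8) numbered 5 with sharing within 500 bp, 2 in the weaker part, 3 with no relaxed summit, 5 in 100 bp windows and, by Fisher's exact test, 0 outside promoters and 0 between 35 and 45% GC (4 each at an unadjusted p under 0.05). Against replicate 3-only peaks (7) they numbered 4 in the stronger part, in the weaker part and in 100 bp windows, and 0 with no relaxed summit, outside promoters and between 35 and 45% GC (1, 2 and 1 at an unadjusted p under 0.05). Against flanks (1) they numbered 5 with sharing within 100 bp, 4 within 500 bp, 5 with 1 summit per 2 kb, 7 with flanks at 1000 bp, 4 at promoters, 2 with no stronger summit within 500 bp, and by the McNemar test 0 with no relaxed summit and 0 between 35 and 45% GC (1 and 2 at an unadjusted p under 0.05). Called 6-mers against shared peaks (444) numbered 261 in the stronger part, 198 in the weaker part and 98 with no relaxed summit. Against replicate 3-only peaks (296) they numbered 113, 164 and, by Fisher's exact test, 0 (137 at an unadjusted p under 0.05), and 170 in 100 bp windows. With no relaxed summit, only 223 replicate 2-only and 71 replicate 3-only peaks were compared. The odds ratio between them was 2.65 for Zeste, 1.83 for GAGA and 1.97 for the GT repeat. For Su(Hw) it was 0.228, for MEF2 0.597 and for homeodomain 0.548, while that of the Initiator reversed. The promoter, GC and stronger-summit restrictions were chosen after seeing the data. The cause was not tested in any of these cases. Of 389 alternatives in all, 257 kept the direction and the side of the threshold or stayed within 1.5 times the count. These totals include matches compared between sets with the flank distance changed, which cannot move them.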
